A study of Homo sapiens with 6 samples.

Results

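The enzymes that make serine and pass its carbon through the folate cycle were followed in U87 cells, an established human glioblastoma line, after knockdown of the long noncoding RNA LINC00152. They are 10 of the 27192 genes counted: PHGDH, PSAT1 and PSPH of serine synthesis, SHMT1 and MTHFD1 of the cytosolic folate arm, and SHMT2, MTHFD2, MTHFD2L, MTHFD1L and ALDH1L2 of the mitochondrial arm. The set was put together because PHGDH and MTHFD2 fell in this same comparison, so the changes of the 10 genes after knockdown are given as a description, with intervals and without p-values. All 10 had enough counts to enter the fit, in which 14078 genes were tested. The control group was U87 transfected with siGL2, a nonspecific siRNA, and the knockdown group was U87 transfected with a pair of siRNAs against LINC00152 given together. Both groups were transfected in 2 rounds with the same lipid reagent, the second round 24 hours after the first, and RNA was taken a further 24 hours later. Each group held 3 libraries, A, B and C, of polyA RNA. U87 is 1 cell line, the labels do not say whether the libraries came from separate cultures, and p-values therefore measure only the spread between these libraries, which may be technical.

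Serine synthesis starts from phosphoglycerate, an intermediate of glycolysis. PHGDH oxidises it, PSAT1 transfers an amino group to the product and PSPH removes the phosphate to leave serine. Serine hydroxymethyltransferases then split serine into glycine and a one-carbon unit carried on tetrahydrofolate, and parallel sets of folate enzymes in mitochondria and cytosol oxidise or reduce that unit, so that it can reach purines, thymidylate and methionine. MTHFD2 is known for being low in most adult tissues and high in embryonic and tumour cells, and PHGDH and the mitochondrial enzymes are known targets of the transcription factor ATF4.

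Libraries held 41963120 to 46234763 counts. LINC00152 had 650, 608 and 776 counts in siGL2 A, B and C and 114, 112 and 109 counts in siLINC00152 A, B and C, which is 17.6% of the control level. Of the 75-base stretches of its annotated transcripts, 20.7% occur in other genes too, mainly in MIR4435-2HG. How such reads were counted is not given. Library A stood apart in each group, more so in siGL2. The chi-square of counts per degree of freedom was 10.9 and 13.7 for siGL2 A against B and C, and 2.91 between B and C. In siLINC00152 it was 5.79 and 5.23 for A against B and C, and 3.07 between B and C. Among the markers of glia and glioma, VIM (6747 to 9168 CPM) and CD44 (2112 to 2747 CPM) were abundant and SLC1A3 and NES were present, whereas AQP4 had 0 counts in all libraries and GFAP, S100B and SOX2 had at most 12. CPM here are counts relative to library size, scaled by TMM. The summed level of the 9 glial and glioma markers, nearly all of it VIM and CD44, was 11370 to 12000 CPM in siGL2 and 8921 to 9221 CPM in siLINC00152. OLIG2, also among the 9, had 15 to 28 counts. Of 4 neuronal markers, SNAP25 and SYT1 made up nearly the whole sum, which was 75.1 to 77.6 CPM in siGL2 and 51.4 to 56.9 CPM in siLINC00152. Markers of leukocytes summed to at most 0.476 CPM, of endothelium to at most 2.60 CPM and of epithelium to at most 1.56 CPM in any library. The part of these marker differences in the results was not tested.

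In control cells the 10 genes differed widely in level. Levels between genes are given here as TMM-scaled CPM per kilobase of gene length, over the union of all annotated exons or over the longest annotated transcript, since the isoform counted is unknown and the choice changes the order. Over the union of exons, PSAT1 was highest at 26.8 ± 1.34 (SD, n = 3), followed by MTHFD1 at 25.4 ± 0.535, and the ranges of these neighbours overlapped. SHMT2 followed at 21.8 ± 0.498. MTHFD2 (18.3 ± 0.118) and MTHFD1L (18.0 ± 0.431) overlapped each other. PSPH stood at 10.3 ± 0.293, PHGDH at 9.31 ± 0.0633, SHMT1 at 5.31 ± 0.151, MTHFD2L at 2.47 ± 0.123 and ALDH1L2 at 0.819 ± 0.0432, with no overlap between neighbours. The median of 13586 genes with a length was 4.99 on this scale. Over the longest transcript, MTHFD1 led at 34.9 ± 0.736, before SHMT2 at 30.8 ± 0.705, and PHGDH was the third, at 27.0 ± 0.183, overlapping PSAT1 at 26.8 ± 1.34. The union of PHGDH exons is 9217 bases, drawn from 34 annotated transcripts, against 3180 bases for its longest transcript, so its level moves by more than that of any other gene of the set except MTHFD2L (9819 against 3181 bases). By either length the isozymes MTHFD2L and ALDH1L2 were the lowest of the 10.

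**Figure D1:**
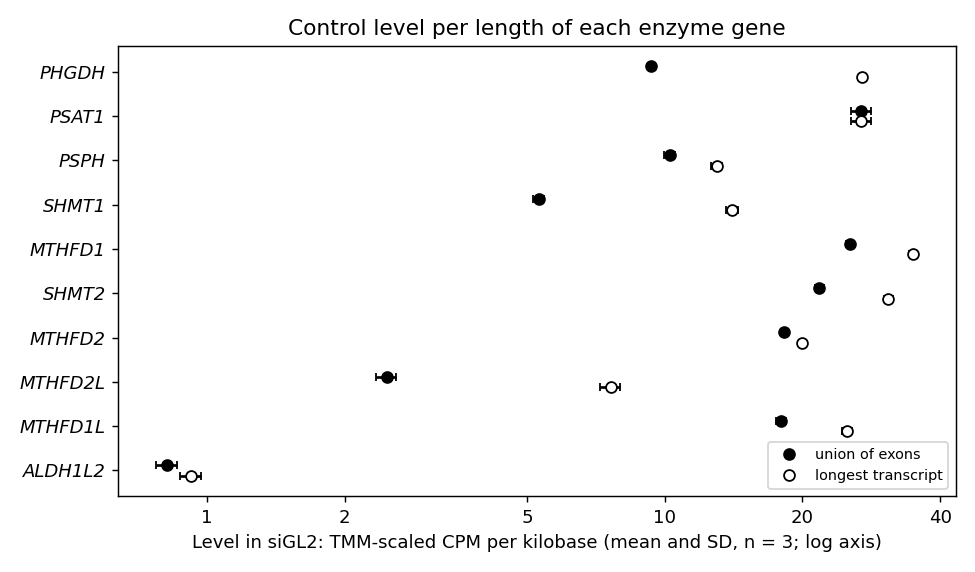
Level per length of each enzyme gene in the 3 siGL2 libraries, as TMM-scaled CPM per kilobase on a log axis, with mean and SD, for the union of exons (filled) and the longest transcript (open). PHGDH moves from 9.31 to 27.0 with the choice of length, whereas PSAT1 stays at 26.8.

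Nearly the whole set was lower after knockdown. Of the 10 genes, 9 passed the test across all genes in the downward direction and ALDH1L2 did not pass (an adjusted p under 0.05 in edgeR's quasi-likelihood fit). In the same comparison 64.3% of all tested genes passed, 32.2% of them downward as a share of all tested. The log2 fold change had a median of −0.74 over the 10 genes and 0.00 over all genes tested. A fall of at least 1.5-fold was seen in 6 of the 10, against 10.4% of tested genes, and of at least 2-fold in 2, PHGDH and MTHFD2, against 3.53%. The CPM of the groups did not overlap, with siLINC00152 lower, in 9 of the 10, against 33.8% of tested genes. Since this comparison chose the set, nothing is read from these shares. Together the 10 genes took 0.0777% to 0.0788% of all siGL2 counts and 0.0409% to 0.0436% of all siLINC00152 counts. In bulk RNA, fewer cells that express a gene and less RNA per cell cannot be told apart.

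**Figure D2:**
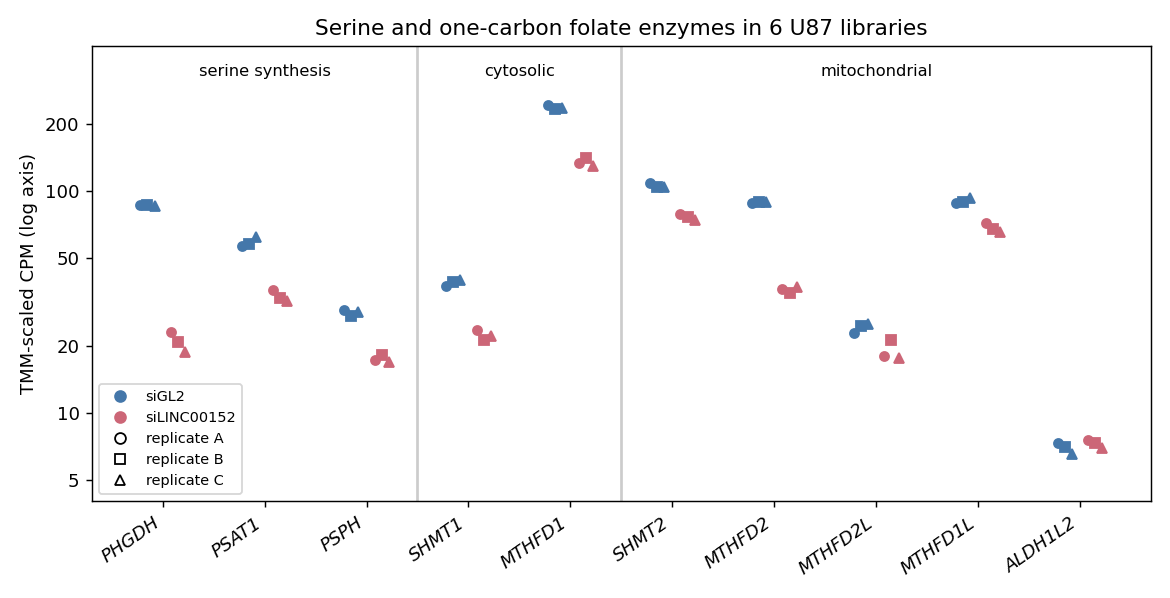
TMM-scaled CPM of the 10 enzyme genes in each library, on a log axis, by group (colour) and replicate letter (symbol). The groups are separate for every gene but ALDH1L2, and PHGDH shows the widest gap, from a mean of 85.8 to a mean of 21.0 CPM.

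Among the serine synthesis enzymes, the first step changed far more than those after it. The fall of PHGDH was a reason for choosing the set, so this contrast is a description only. PHGDH (chromosome 1, 119648411 to 119744226, plus strand, hg38) had 86.3, 86.1 and 85.2 CPM in siGL2 A, B and C and 23.1, 20.9 and 18.8 CPM in siLINC00152 A, B and C. The control libraries lay close together, and every knockdown library was far below them. PHGDH fell 4.10-fold, with a log2 fold change of −2.04 ± 0.06 (SE; 95% confidence interval −2.16 to −1.91), and 0.305% of tested genes had a lower log2 fold change. PSAT1, the aminotransferase (chromosome 9, 78297143 to 78330093), had 56.5, 57.7 and 62.0 CPM in siGL2 and 35.7, 33.1 and 32.0 CPM in siLINC00152. PSPH, the phosphatase (chromosome 7, 56011051 to 56051604, minus strand), had 1259, 1185 and 1348 counts in siGL2 and 713, 764 and 725 counts in siLINC00152, or 28.3 ± 0.808 and 17.5 ± 0.596 CPM (SD, n = 3). Both were lower in every knockdown library than in any control library, at 57.2% and 61.9% of the control level. Their log2 fold changes were −0.81 ± 0.06 and −0.69 ± 0.06 (SE), with overlapping 95% confidence intervals of −0.92 to −0.69 and −0.81 to −0.57.

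Both enzymes of the cytosolic arm fell by similar amounts. SHMT1, the cytosolic serine hydroxymethyltransferase (chromosome 17, 18327860 to 18363563, minus strand), had 37.5, 38.9 and 39.6 CPM in siGL2 and 23.6, 21.4 and 22.2 CPM in siLINC00152. MTHFD1, a trifunctional enzyme that interconverts the cytosolic one-carbon folates (chromosome 14, 64388031 to 64463457), had the most counts of the set, with 243, 234 and 237 CPM in siGL2 and 133, 140 and 129 CPM in siLINC00152. The groups were well separated in both genes. Their log2 fold changes were −0.79 ± 0.06 for SHMT1 and −0.83 ± 0.05 for MTHFD1 (SE), or 57.9% and 56.4% of the control level. Of the 75-base stretches of MTHFD1, 7.76% occur in other genes too, mainly in AL122035.2, which overlaps it on the other strand. Whether the counting used strand is unknown.

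The mitochondrial arm was uneven, though the fall of MTHFD2 too was a reason for choosing the set. MTHFD2, the mitochondrial dehydrogenase and cyclohydrolase (chromosome 2, 74198562 to 74217565), had 88.3, 89.1 and 89.4 CPM in siGL2 and 36.3, 34.8 and 36.9 CPM in siLINC00152. Libraries within each group lay close together and the gap between groups was wide. MTHFD2 fell 2.47-fold, with a log2 fold change of −1.30 ± 0.05 (SE; 95% confidence interval −1.40 to −1.21). Of its exonic bases, 33.2% overlap genes on the opposite strand, mainly SLC4A5. Compared on both strands, 25.6% of its 75-base stretches occur in other genes, again mainly in SLC4A5. SLC4A5 itself had between 4 and 14 counts in the 6 libraries, while MTHFD2 had between 1462 and 4229.

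MTHFD2L, the isozyme of MTHFD2 (chromosome 4, 74114174 to 74303099), had 22.9, 24.5 and 25.3 CPM in siGL2 and 18.1, 21.4 and 17.8 CPM in siLINC00152. Here the gap was small, and siLINC00152 B lay just under siGL2 A. Its log2 fold change of −0.35 ± 0.07 (SE) was −0.44 without siLINC00152 replicate B. SHMT2, the mitochondrial serine hydroxymethyltransferase (chromosome 12, 57229327 to 57234935), had 108, 104 and 104 CPM in siGL2 and 79.0, 76.5 and 73.8 CPM in siLINC00152. MTHFD1L, which releases formate from the mitochondrial folate pool (chromosome 6, 150865549 to 151101887), had 88.5, 89.4 and 92.6 CPM in siGL2 and 71.7, 67.8 and 65.3 CPM in siLINC00152. Both fell without overlap between groups, SHMT2 to 72.6% and MTHFD1L to 75.7% of the control level, with log2 fold changes of −0.46 ± 0.05 and −0.40 ± 0.05 (SE).

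ALDH1L2, which oxidises the mitochondrial one-carbon unit to carbon dioxide (chromosome 12, 105019784 to 105084577, minus strand), was the exception. It had 7.31, 7.01 and 6.58 CPM in siGL2 and 7.57, 7.35 and 6.97 CPM in siLINC00152, and the groups overlapped. Its log2 fold change was 0.07 ± 0.08 (SE), with a 95% confidence interval of −0.10 to 0.24, which leaves out a fall as large as that of any of the other 9 genes. Without siGL2 replicate A, the log2 fold change was −2.03 for PHGDH, −0.83 for PSAT1, −0.67 for PSPH, −0.81 for both SHMT1 and MTHFD1, −0.44 for SHMT2, −1.31 for MTHFD2, −0.38 for MTHFD2L, −0.41 for MTHFD1L and 0.11 for ALDH1L2. No member moved by more than 0.04 on the log2 scale when that library was left out. Without siLINC00152 replicate A the largest move was that of PHGDH, to −2.11, by 0.08, and 9 of the 10 genes still passed downward.

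**Figure D3:**
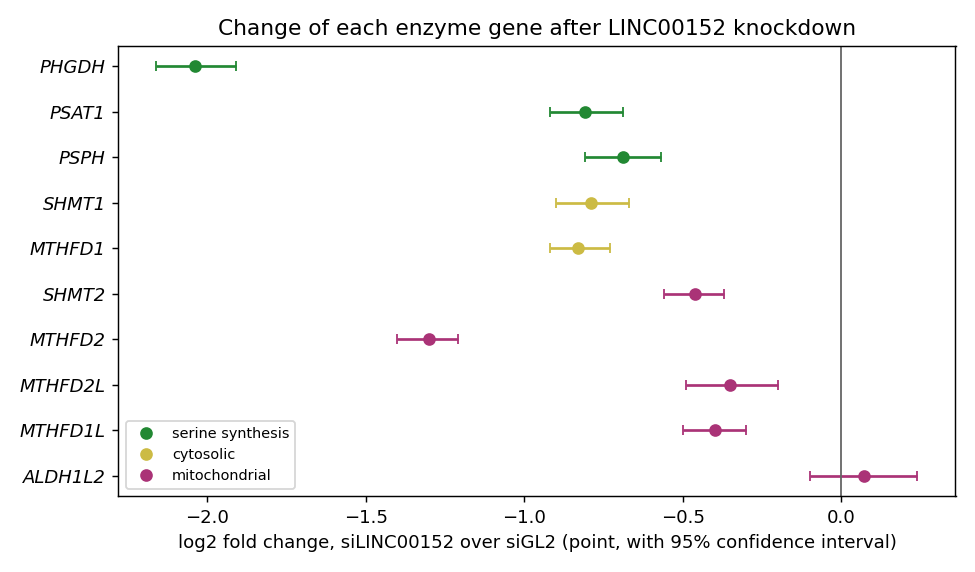
Log2 fold change of each enzyme gene, siLINC00152 over siGL2, with its 95% confidence interval, coloured by pathway branch. PHGDH (−2.04) and MTHFD2 (−1.30), for whose falls the set was chosen, lie apart from the other members, whose values run from −0.83 to 0.07.

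The balance between isozymes differed between the groups. Of the summed level per length of MTHFD2 and MTHFD2L, MTHFD2 held 88.6%, 88.0% and 87.7% in siGL2 and 80.2%, 76.6% and 80.7% in siLINC00152 over the union of exons. Over the longest transcript its share was lower, at 72.4 ± 0.872% (SD, n = 3) in siGL2 and 57.5 ± 3.24% in siLINC00152. The ratio of MTHFD2 counts to MTHFD2L counts, which needs no gene length, was 3.85, 3.63 and 3.54 in siGL2 and 2.01, 1.63 and 2.08 in siLINC00152. All of these are forms of 1 ratio in each library, and every knockdown library lay below every control library. The fall of MTHFD2 was a reason for choosing the set, so its lower share is a description only.

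In both pairs of a mitochondrial and a cytosolic enzyme that were computed, the mitochondrial share was higher after knockdown. MTHFD2 was not paired with MTHFD1, the trifunctional cytosolic enzyme. There the mitochondrial gene fell more, to 40.5% of the control level against 56.4% for MTHFD1. SHMT2 held 81.3%, 80.1% and 79.8% of the summed SHMT2 and SHMT1 level in siGL2 and 83.4%, 84.3% and 83.4% in siLINC00152 over the union of exons, or 68.7 ± 1.08% and 73.3 ± 0.781% (SD, n = 3) over the longest transcript. MTHFD1L held 40.4%, 41.7% and 42.2% of the summed MTHFD1L and MTHFD1 level in siGL2 and 50.1%, 47.4% and 48.5% in siLINC00152. In both pairs every knockdown library lay above every control library. No test was made of these shares, because the genes were chosen on this comparison and 3 libraries against 3 cannot give an exact two-sided p under 0.10.

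**Figure D4:**
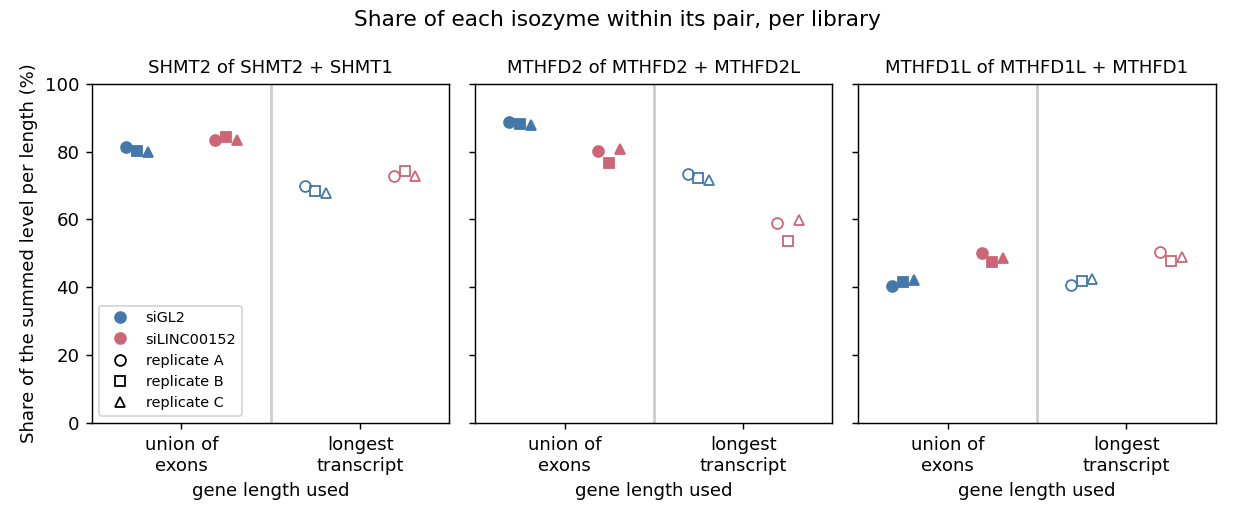
Share of the first-named enzyme in the summed level per length of its pair, in percent, for each library, with gene length taken as the union of exons (filled) or the longest transcript (open). The share of MTHFD2 is lower, and the shares of SHMT2 and MTHFD1L are higher, in all 3 siLINC00152 libraries than in all 3 siGL2 libraries. The set was chosen in part for the fall of MTHFD2.

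Summed over the branches, the level per length over the union of exons was 45.7, 45.6 and 47.9 for serine synthesis in siGL2 and 25.1, 24.0 and 22.8 in siLINC00152. The cytosolic arm summed to 31.1, 30.2 and 30.8 in siGL2 and 17.4, 17.9 and 16.9 in siLINC00152. The mitochondrial arm summed to 61.3, 60.9 and 61.6 in siGL2 and 40.8, 39.5 and 38.5 in siLINC00152. The branches thus stood at 51.7%, 56.7% and 64.6% of their control sums, and at 44.9%, 56.8% and 66.8% when the longest transcript set the length. The order of levels within the knockdown libraries also changed. Over the longest transcript, PHGDH went from the third place of the 10 in siGL2 to the eighth in siLINC00152 (6.59 ± 0.684; SD, n = 3), where its range overlapped that of MTHFD2L (6.00 ± 0.628). SHMT1, MTHFD2 and PSPH, at 8.13 ± 0.414, 8.08 ± 0.241 and 8.05 ± 0.273, could not be ordered.

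The DNA before the start sites of the genes was searched for letters shared between them. RefSeq start sites on GRCh38.p14 were not at hand for PSPH, SHMT2 and ALDH1L2, which left 7 of the 10. For each, the 250 bases before the first start listed were searched on both strands for CCAAT, the core of the CCAAT box, for CACGTG, the E-box read by MYC, and for TGATGNAA, the core of the element read by ATF4 with C/EBP proteins. The sequences of PHGDH and MTHFD2, which changed most, of PSAT1, which has the most CCAAT matches, and of MTHFD1L, the 1 member with TGATGNAA, run 5′ to 3′ toward the start site, with each match in capitals.
PHGDH, chr1:119711684-119711933, plus strand: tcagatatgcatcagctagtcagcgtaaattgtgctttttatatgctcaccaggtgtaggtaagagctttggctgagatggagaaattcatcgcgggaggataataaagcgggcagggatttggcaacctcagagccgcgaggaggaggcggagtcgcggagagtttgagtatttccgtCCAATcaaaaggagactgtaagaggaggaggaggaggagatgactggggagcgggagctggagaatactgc
MTHFD2, chr2:74198365-74198614, plus strand: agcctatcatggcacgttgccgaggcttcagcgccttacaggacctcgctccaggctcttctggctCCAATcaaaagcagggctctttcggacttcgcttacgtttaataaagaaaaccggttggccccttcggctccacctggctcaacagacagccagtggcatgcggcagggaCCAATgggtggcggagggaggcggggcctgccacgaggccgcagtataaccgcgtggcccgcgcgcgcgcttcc
PSAT1, chr9:78296875-78297124, plus strand: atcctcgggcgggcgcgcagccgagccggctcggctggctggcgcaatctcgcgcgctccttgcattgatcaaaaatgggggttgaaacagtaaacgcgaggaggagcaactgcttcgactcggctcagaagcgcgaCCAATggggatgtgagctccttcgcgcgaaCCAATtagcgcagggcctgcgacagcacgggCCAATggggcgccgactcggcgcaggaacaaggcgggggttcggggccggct
MTHFD1L, chr6:150866236-150866485, plus strand: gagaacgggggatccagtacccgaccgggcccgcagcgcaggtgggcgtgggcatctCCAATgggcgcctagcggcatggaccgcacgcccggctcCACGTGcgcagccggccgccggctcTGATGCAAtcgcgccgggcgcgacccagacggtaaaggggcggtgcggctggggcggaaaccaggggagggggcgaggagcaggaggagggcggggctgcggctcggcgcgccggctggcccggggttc
CCAAT was found in 6 of the 7 members, all but MTHFD2L, and in 35.1% of 10270 tested genes with such a window (33.0% of 27305 genes in all). CACGTG was found in MTHFD1 and MTHFD1L, against 8.70% of tested genes (6.49% of all). TGATGNAA was found only in MTHFD1L among the 7, against 1.54% of tested genes (3.19% of all). The match in PHGDH begins 71 bases before the start and 1 of the 2 in MTHFD2 begins 74 bases before it. The 3 motifs do not overlap one another in these windows, and CCAAT was added to the search after the sequences had been seen. MTHFD1L has 4 windows listed and MTHFD2L has 2. All 7 genes searched were lower after knockdown, so their matches could not be compared with those of a member that did not fall. A match describes these letters and is not evidence of a bound factor.

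Other genes of folate handling, from a list of neighbouring genes, were called about as often as genes in general, of which 64.3% passed, 32.2% in each direction. Of 16 listed, 9 were tested, 6 fell, 0 rose at an adjusted p under 0.05 by edgeR and 3 did not pass. Without siGL2 replicate A or siLINC00152 replicate A, 1 gene rose. The median log2 fold change of the list was −0.26 against 0.00 over all genes. SLC19A1, the reduced folate carrier, fell most, from 16.1 ± 1.38 to 7.68 ± 0.833 CPM (SD, n = 3), a log2 fold change of −1.07 ± 0.08 (SE; edgeR adjusted p = 7.10e-10). FPGS, which adds the glutamate tail that keeps folate in the cell, fell by 0.33 ± 0.05 on the log2 scale (edgeR adjusted p = 1.98e-05). MTHFSD and MTFMT fell by 0.26 and 0.17. MTFMT did not pass by DESeq2 (adjusted p = 0.0692), nor without siGL2 replicate C (edgeR adjusted p = 0.147), siLINC00152 replicate B (0.0754) or siLINC00152 replicate C (0.0973). SLC25A32, the mitochondrial folate carrier, stood at −0.01 ± 0.05 and the hydrolase gene GGH at −0.04 ± 0.05. GGH passed without siGL2 replicate A (edgeR adjusted p = 0.0493). ALDH1L1, the cytosolic counterpart of ALDH1L2 and a known astrocyte marker, had at most 2 counts in any library.

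Some of these counts share sequence with other genes. In SLC25A32, 69.7% of exonic bases overlap a gene on the same strand. On the other strand, genes cover 14.0% of the exons of SLC19A1. MTHFS had 1 to 4 counts, and 34.0% of its exonic bases lie in the read-through gene ST20-MTHFS, which had at most 5.

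Most tested genes that use serine or cleave glycine were called lower. Of 15 listed, 14 were tested, 11 fell, 2 rose and 1, SARDH, did not pass, beside 32.2% lower and 32.2% higher among all tested genes. The median log2 fold change of the list was −0.35. SDSL, a serine dehydratase-like gene, fell from 19.9 to 10.2 CPM (log2 fold change −0.96 ± 0.08, SE; edgeR adjusted p = 7.30e-10). GLDC, the decarboxylase of the glycine cleavage system, fell by 0.75 ± 0.12 from a low level of 4.05 CPM, and GCAT, which makes glycine from a breakdown product of threonine, by 0.66 ± 0.07. The cleavage system partners DLD and GCSH fell by 0.39 ± 0.05 and 0.36 ± 0.10. AMT, at about 1 CPM, fell by 0.53 ± 0.20, but did not pass by DESeq2 (adjusted p = 0.0797) or in 4 of the 6 fits that left out a library (edgeR adjusted p of 0.0690 to 0.117 without siGL2 replicate A or B or siLINC00152 replicate A or C). PTDSS1, a phosphatidylserine synthase, fell by 0.34 ± 0.04, whereas SPTLC2, a subunit of the serine palmitoyltransferase that opens sphingolipid synthesis, rose by 0.23 ± 0.05. SPTLC1 also rose, by 0.14 ± 0.05, but did not pass with scaling by library size alone (edgeR adjusted p = 0.201) or without siLINC00152 replicate B (0.0741) or C (0.122), each of which left 1 gene higher. PTDSS2 fell by 0.33 ± 0.11, and by 0.19 without siGL2 replicate A, where it did not pass (edgeR adjusted p = 0.101). In AMT, 63.1% of exonic bases overlap a gene of the same strand.

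The methionine cycle can take its methyl group from folate, but not every gene listed with it is a step of it. Among 9 tested genes listed for the cycle or for transsulfuration, the route to cysteine, 5 fell, 1 rose and 3 did not pass. Thus 6 were called, near the 64.3% of all tested genes, where 32.2% were called in each direction. The median log2 fold change of the list was −0.27. MTRR, which reactivates methionine synthase, fell from 57.6 to 32.5 CPM (log2 fold change −0.82 ± 0.05, SE; edgeR adjusted p = 1.05e-11), while methionine synthase itself, MTR, stood at 98.5 and 99.2 CPM (0.01 ± 0.06). MAT2A and MAT2B, subunits of the enzyme that makes the methyl donor S-adenosylmethionine, fell by 0.43 ± 0.04 and 0.47 ± 0.05. BHMT2 fell by 0.70 ± 0.09 and AHCYL2 by 0.27 ± 0.05. AHCY stood at 0.01 ± 0.04 and AHCYL1 at −0.08 ± 0.04, which passed with library size alone (edgeR adjusted p = 0.00348). CTH, the last enzyme from homocysteine to cysteine, rose by 0.63 ± 0.14 from 2.04 CPM (edgeR adjusted p = 4.10e-04). CBS is listed at 0 in all libraries, but 52.3% of its 75-base stretches are shared, mainly with its copy CBSL, which is listed at 0 too, so no absence is read from it.

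Carriers of serine were called in both directions. Of 8 tested carriers, 4 rose, 2 fell and 2 did not pass, beside 32.2% of all tested genes in each direction, and 3 rose with scaling by library size alone or without siLINC00152 replicate B. The median log2 fold change of the list was 0.24. SFXN3, a mitochondrial serine carrier, rose from 110 to 186 CPM (log2 fold change 0.77 ± 0.05, SE; edgeR adjusted p = 7.97e-12). SFXN1, the main mitochondrial serine carrier, rose by 0.43 ± 0.04. SLC38A2, a plasma membrane carrier of small neutral amino acids, rose from 431 to 702 CPM (0.70 ± 0.05; edgeR adjusted p = 3.28e-11), and its relative SLC38A1 fell from 336 to 236 CPM (−0.51 ± 0.05; edgeR adjusted p = 9.81e-09). SFXN2 fell by 1.18 ± 0.11 from 4.84 CPM. SLC1A4 rose by 0.18 ± 0.06, but did not pass with scaling by library size alone (edgeR adjusted p = 0.103) or without siLINC00152 replicate B (0.0682). SLC1A5 stood at −0.02 ± 0.04. SLC38A5 stood at 0.31 ± 0.14 and passed without siGL2 replicate A (edgeR adjusted p = 0.0368) or siLINC00152 replicate C (0.0309).

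Purine and thymidylate synthesis, the main users of folate-bound carbon, had genes called in both directions. Of 14 tested genes, 9 fell, 2 rose and 3 did not pass, beside 32.2% of all tested genes in each direction. The median log2 fold change of the list was −0.23. IMPDH2, which commits inosine monophosphate to guanine nucleotides, fell from 274 to 162 CPM (log2 fold change −0.76 ± 0.04, SE; edgeR adjusted p = 6.26e-12), and TYMS, thymidylate synthase, from 213 to 128 CPM (−0.74 ± 0.04; edgeR adjusted p = 8.17e-12). ATIC, which uses formylated folate in the last steps of purine synthesis, fell by 0.43 ± 0.05, PRPS2 by 0.34 ± 0.05, PAICS by 0.25 ± 0.04 and GMPS by 0.25 ± 0.05. ADSS (0.44 ± 0.05) and IMPDH1 (0.25 ± 0.05) rose. The exons of TYMS are covered to 46.6% on the other strand, mainly by ENOSF1.

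Of 11 tested regulators, ATF4 among them, 3 rose, 4 fell and 4 did not pass, beside 32.2% of all tested genes in each direction. ATF4 fell from 141 to 118 CPM (log2 fold change −0.25 ± 0.05, SE; edgeR adjusted p = 6.72e-05), ATF5 by 0.35 ± 0.05 and CEBPB by 0.50 ± 0.05. MYC rose from 49.9 to 70.9 CPM (0.51 ± 0.05; edgeR adjusted p = 1.26e-08) and EIF2AK3, the endoplasmic reticulum kinase that raises ATF4 translation, from 27.8 to 49.2 CPM (0.82 ± 0.05; edgeR adjusted p = 1.40e-11). EIF2AK1 rose by 0.22 ± 0.04 and EIF2AK2 fell by 0.37 ± 0.07. NFE2L2, EIF2AK4 and CEBPG stood at 0.09, 0.08 and −0.07 and did not pass, though NFE2L2 passed without siLINC00152 replicate A (edgeR adjusted p = 0.0288), EIF2AK4 without siGL2 replicate A (0.0233) and CEBPG with library size alone (0.0209). On the other strand, genes cover 21.2% of the exons of ATF5, 15.1% of those of EIF2AK3 and 11.8% of those of CEBPB.

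The wider ATF4 response had no single direction. Of its 28 tested genes, 12 rose, 4 fell and 12 did not pass, beside 32.2% of all tested genes in each direction. The median log2 fold change of the list was 0.03. With scaling by library size alone, 10 rose and 7 fell. STC2, a secreted glycoprotein, rose from 448 to 782 CPM (log2 fold change 0.80 ± 0.05, SE; edgeR adjusted p = 1.13e-11), VLDLR by 0.66 ± 0.04, SESN2 by 0.78 ± 0.05 and DDIT4 by 0.81 ± 0.06. ALDH18A1, of proline synthesis, rose by 0.38 ± 0.04 and NUPR1 by 0.65 ± 0.08. The aminoacyl-tRNA synthetase genes IARS and NARS fell by 0.46 ± 0.04 and 0.43 ± 0.04. ASNS, asparagine synthetase, stood at 28.4 and 28.6 CPM (0.01 ± 0.05) and was named after its value was seen. In DDIT4, 41.2% of exonic bases overlap the opposite strand, and in ASNS 44.6% overlap a gene of the same strand.

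**Figure D5:**
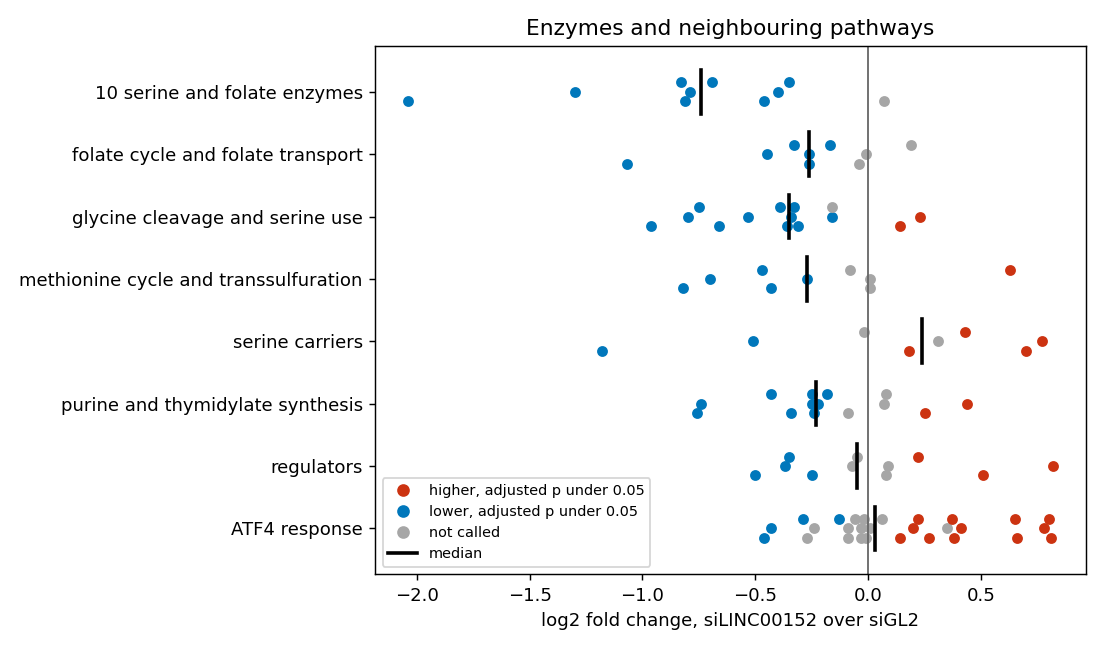
Log2 fold change, siLINC00152 over siGL2, of each tested gene (point, coloured by its call) in the 10 enzymes and 7 neighbouring lists, with the median of each list as a black bar. Medians lie at −0.74 for the 10 enzymes, between −0.35 and −0.23 for folate handling, glycine and serine use, methionine cycle and purine synthesis, and at 0.24 for serine carriers.

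Among 9223 genes whose mean reached 10 CPM, the 3 whose log2 CPM over the 6 libraries lay closest to PHGDH, each gene centred on its own mean, were PLEKHG4B, PLAU and TK2, at root mean square distances of 0.0554, 0.105 and 0.107. The closest to MTHFD2 were GEMIN5 and PABPC4, at 0.0292 and 0.0389. The pattern over these libraries is mainly the difference between the groups, and the log2 fold changes of the first 3 were −2.12, −1.87 and −1.94 and of the other two −1.31 and −1.30. In PLAU and TK2, 31.1% and 21.9% of exonic bases overlap the opposite strand.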

How the data were processed

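PolyA RNA of 6 U87 libraries was sequenced from both ends on directional libraries, 75 bases a read, per the labels' protocols. The authors deposited raw counts, 1 whole number for each symbol and library. Per the submitters' processing notes, which give no versions, bcl2fastq, HISAT, HTSeq, DESeq and hg38 were used. Not given in the sources used here: which annotation was counted, whether strand was used and how reads with several matches were handled.

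From the counts, low genes were removed (filterByExpr with a minimum count of 10 and total of 15) and the rest scaled by TMM and tested with edgeR 4.0.16 (robust quasi-likelihood, R 4.3.3) on all 6 libraries with no covariate, two-sided, with Benjamini-Hochberg adjustment over 14078 genes and a threshold of 0.05. Each SE was taken as the absolute log2 fold change over the root of the F statistic. The common biological coefficient of variation was 4.47%. Total counts of 41963120 to 46234763 put the upper limit of a gene with 0 counts (3 counts) at 0.0649 to 0.0715 CPM, for counting error only. The steps were tested on simulated data in which far fewer genes changed than passed here, in equal numbers up and down. That simulation does not check the scaling or the error rate at the share of changed genes seen here.

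Lengths, coordinates and exon overlaps were read from the GENCODE 29 annotation of GRCh38 (hg38), which matched 24764 of 27192 symbols, 555 of them by another symbol. Upstream sequences come from RefSeq (GRCh38.p14). Alternatives were DESeq2 1.42.0, other scalings and filters, the replicate letter as a block, each library left out, and other gene lengths.

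The 10 genes, the 7 neighbouring lists and the tests were chosen with earlier results of these data known. Named were LINC00152, the 10 genes, members of the neighbouring lists (up to 8 with the smallest p in the purine and ATF4 lists), the nearest patterns to PHGDH and to MTHFD2 (3 each by the rule), and cell markers. Some genes that the rule names are counted in the lists but are not reported here by name.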

Additional observations from a re-analysis of the deposited data

How the results depend on the processing

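All 12 alternative fits kept 9 of the 10 enzyme genes lower and ALDH1L2 without a call, and the largest move of a member was 0.09 on the log2 scale, in MTHFD2L without siLINC00152 replicate B. Over all genes, 8294 to 9336 passed when a library was left out, against 9058, and library size alone shifted the median log2 fold change by −0.07 and gave 3755 genes higher and 5389 lower, against 4529 each way. In the neighbouring lists 61 to 68 genes passed over the alternatives, against 65.

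The labels do not say whether the letters A, B and C pair the libraries. Deviations from the group means correlated at 0.16 for A, −0.10 for B and 0.22 for C, and at −0.31 to 0.18 between unlike letters. Libraries A and C of siGL2 correlated best with the same letter, and siGL2 B with siLINC00152 A (0.11). With 3 libraries a group, these values cannot settle whether the letters are pairs. With the replicate block, 9155 genes passed in all, 9 of the 10 enzymes and 65 in the neighbouring lists.

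Gene length set the levels: the summed control level of the 10 genes was 138.4 CPM per kilobase over the union of exons, 200.1 over the longest transcript and 638.7 as TPM over tested genes. By the longest transcript the share of SHMT2 was 68.7% in siGL2 and 73.3% in siLINC00152, against 80.4% and 83.7%, and that of MTHFD2 was 72.4% and 57.5%, against 88.1% and 79.2%.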
